A study of Homo sapiens with 4 samples.

Results

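The gene set comprised 36 genes that serve glucose use or respond to low oxygen, out of 33538 gene rows in each deposited count table. The genes were taken by symbol, and each symbol matched 1 row. A glycolysis group of 24 genes held 17 enzymes of the pathway, 2 glucose transporters, 2 lactate transporters and 3 regulators. A HIF target group held the other 12 genes, which are not glycolytic enzymes but are known targets of the hypoxia-inducible factors (HIF).

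The study depleted APC, a tumour suppressor of the colon, in HCEC 1CT cells and sequenced single cells. HCEC 1CT is 1 line of colon epithelium from a human donor, made immortal with TERT and CDK4, which control and knockdown cells both carry. Cells were transduced with a scrambled shRNA (shScr) or with 1 shRNA to APC (shAPC), kept in puromycin, and harvested 3 or 7 days later. All cells grew in DMEM and M199 medium with EGF, hydrocortisone, insulin, transferrin, selenite and serum. The labels call the virus retroviral and the 10x kit version 2, and a supplementary table of the study also gives version 2, whereas its methods name a lentivirus and version 3. Each of the 4 groups was 1 library. Where 4 values of a gene are given, they are in library order: shScr then shAPC at day 3, and shScr then shAPC at day 7. No difference below has a replicate check or a test, and intervals are 95% intervals for counting error only. A ratio describes a pair of libraries, not the conditions.

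After filters on cells (a minimum of 200 genes and 500 UMIs, and a mitochondrial share under 5%) 1116, 788, 2600 and 1478 cells remained in library order, with 28451455 to 39797418 UMIs (counted RNA molecules) per library. The mitochondrial limit removed 24.1%, 24.7%, 28.8% and 51.3% of barcodes. The median UMIs per kept cell was 35109, 49685.5, 1330 and 21029.5 in library order, so depth differed between the libraries of a day, most at day 7. In shScr day 7, 1402 of the 2600 cells had under 2000. Both shScr count tables carried Cell Ranger version 3.0.2 in their headers and both shAPC tables version 3.0.0, so software version and shRNA cannot be told apart. The 2 libraries of day 3 shared 19 kept barcodes and those of day 7 shared 4, and leaving shared barcodes out moved no member across the 1.5-fold limit used below. APC, the targeted gene, was at 16.1, 5.52, 19.1 and 6.61 counts per 1000000 UMIs (CPM), lower in both shAPC libraries. Of 10 epithelial markers none reached 20 CPM in any library, their summed level was 25.0 to 49.3 CPM, and KRT20, CDX2 and MUC2 had no UMI. All 8 mesenchymal markers reached 20 CPM in at least 1 library, with VIM at 4010 to 5303 CPM, so these markers did not bear out the labelled epithelial type. Leukocyte and endothelial markers were at or near 0 apart from CD68, at 17.4 to 29.6 CPM.

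Glycolysis splits glucose into pyruvate in the cytosol, and lactate dehydrogenase turns pyruvate into lactate, which leaves the cell through monocarboxylate transporters. When oxygen is scarce, prolyl hydroxylases no longer mark HIF1A for destruction, and HIF binds DNA at a short core, ACGTG or GCGTG, near genes for glucose uptake, glycolysis, blood vessel growth, mitochondrial clearance and collagen hydroxylation. MYC and other factors also act on glycolytic genes, and many of those genes are expressed in dividing cells at normal oxygen.

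RefSeq promoters (GRCh38.p14, 250 bases before to 50 after the start) were at hand for 30 of the 36 genes. SLC2A3, SLC16A1, VEGFA, STC1, BNIP3L and NDRG1 had none. The core ACGTG, searched on both strands, was in 12 of the 30 windows (40%), and in 21.6% of all 27305 promoters of that length. ACGTG or GCGTG was in 21 of 30 (70%) and in 48.4% of all promoters. The palindrome CACGTG, which holds ACGTG on both strands and is also the E-box that MYC binds, was in 5 of 30 and in 7.43% of all. The promoters of 5 members are shown, all of them with ACGTG, so they do not stand for the 30 windows. They include those of a HIF target called higher with shAPC at day 7 (BNIP3) and a HIF target near the detection limit (CA9). The others belong to minor isoenzymes (ALDOC, ENO2) and to an abundant enzyme whose level moved little (LDHA). PKM, TPI1, STC2 and PFKFB4 were among the members whose windows held no ACGTG. Capitals mark ACGTG or its reverse complement CACGT.
BNIP3 promoter, chr10:131981874-131982173, minus strand: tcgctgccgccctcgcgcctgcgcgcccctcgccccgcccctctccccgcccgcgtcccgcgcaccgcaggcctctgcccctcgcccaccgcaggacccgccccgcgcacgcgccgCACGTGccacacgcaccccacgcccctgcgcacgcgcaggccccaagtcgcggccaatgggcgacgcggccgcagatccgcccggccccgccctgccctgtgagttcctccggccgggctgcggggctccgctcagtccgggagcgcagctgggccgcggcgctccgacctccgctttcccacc
CA9 promoter, chr9:35673678-35673977, plus strand: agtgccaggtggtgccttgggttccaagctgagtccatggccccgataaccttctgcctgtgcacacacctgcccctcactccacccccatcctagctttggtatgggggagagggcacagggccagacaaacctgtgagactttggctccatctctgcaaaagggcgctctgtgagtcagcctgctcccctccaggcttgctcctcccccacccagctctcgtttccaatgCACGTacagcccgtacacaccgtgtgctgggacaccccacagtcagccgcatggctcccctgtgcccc
ALDOC promoter, chr17:28576846-28577145, minus strand: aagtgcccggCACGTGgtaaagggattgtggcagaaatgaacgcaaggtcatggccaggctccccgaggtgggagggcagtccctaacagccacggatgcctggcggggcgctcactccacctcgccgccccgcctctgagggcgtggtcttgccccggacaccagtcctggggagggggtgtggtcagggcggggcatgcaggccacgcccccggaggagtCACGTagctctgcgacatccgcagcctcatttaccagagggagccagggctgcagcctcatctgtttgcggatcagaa
ENO2 promoter, chr12:6914330-6914629, plus strand: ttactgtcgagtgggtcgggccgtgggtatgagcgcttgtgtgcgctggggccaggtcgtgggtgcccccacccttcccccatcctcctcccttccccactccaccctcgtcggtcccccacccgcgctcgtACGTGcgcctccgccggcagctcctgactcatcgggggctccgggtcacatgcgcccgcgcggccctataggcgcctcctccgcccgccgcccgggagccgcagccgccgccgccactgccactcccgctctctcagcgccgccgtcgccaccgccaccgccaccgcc
LDHA promoter, chr11:18394313-18394612, plus strand: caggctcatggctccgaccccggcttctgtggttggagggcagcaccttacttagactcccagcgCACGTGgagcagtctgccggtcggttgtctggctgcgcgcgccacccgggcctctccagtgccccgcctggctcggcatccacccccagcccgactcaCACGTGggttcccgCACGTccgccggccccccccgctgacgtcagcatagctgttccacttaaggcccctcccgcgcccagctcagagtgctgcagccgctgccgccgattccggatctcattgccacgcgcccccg
LDHA held 3 separate marked stretches, 2 of them CACGTG, and ALDOC held 2. BNIP3, CA9 and ENO2 held 1 each. A match describes letters in the window and does not show binding.

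The 36 genes together made up 0.961%, 1.14%, 0.766% and 0.782% of UMIs in library order. The kit counts 1 tag at the 3′ end of each molecule, so CPM needs no scaling by gene length. Of the 36 genes, 22 reached 20 CPM in all 4 libraries, 9 in none, and 29 had their highest level in shAPC day 3. Ribosomal protein genes took 28.3% of UMIs in that library and 33.0% to 35.2% in the others, and their part in the member levels was not tested. The enzymes outweighed the HIF targets in every library: the 17 enzymes summed to 8191, 9444, 6418 and 6404 CPM, and the 12 HIF targets to 1004, 1373, 893 and 1064 CPM. In the removed barcodes the HIF targets summed to 1100.45, 1498, 1052 and 1317 CPM, above the kept cells in each library and again higher with shAPC at each day. The enzymes summed there to 8487, 9449.9, 5482 and 6275 CPM. GAPDH alone, the glyceraldehyde phosphate dehydrogenase, gave 3971, 4291, 2990 and 3117 CPM. At the other end EGLN3, a HIF-induced prolyl hydroxylase, had 0, 2, 2 and 0 UMIs, counts at which no ratio is given. A count of 0 allows up to 3 UMIs, a one-sided 95% limit. EGLN3 overlaps SPTSSA on the same strand over 29453 bases, so its reads may have gone uncounted.

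**Figure D1:**
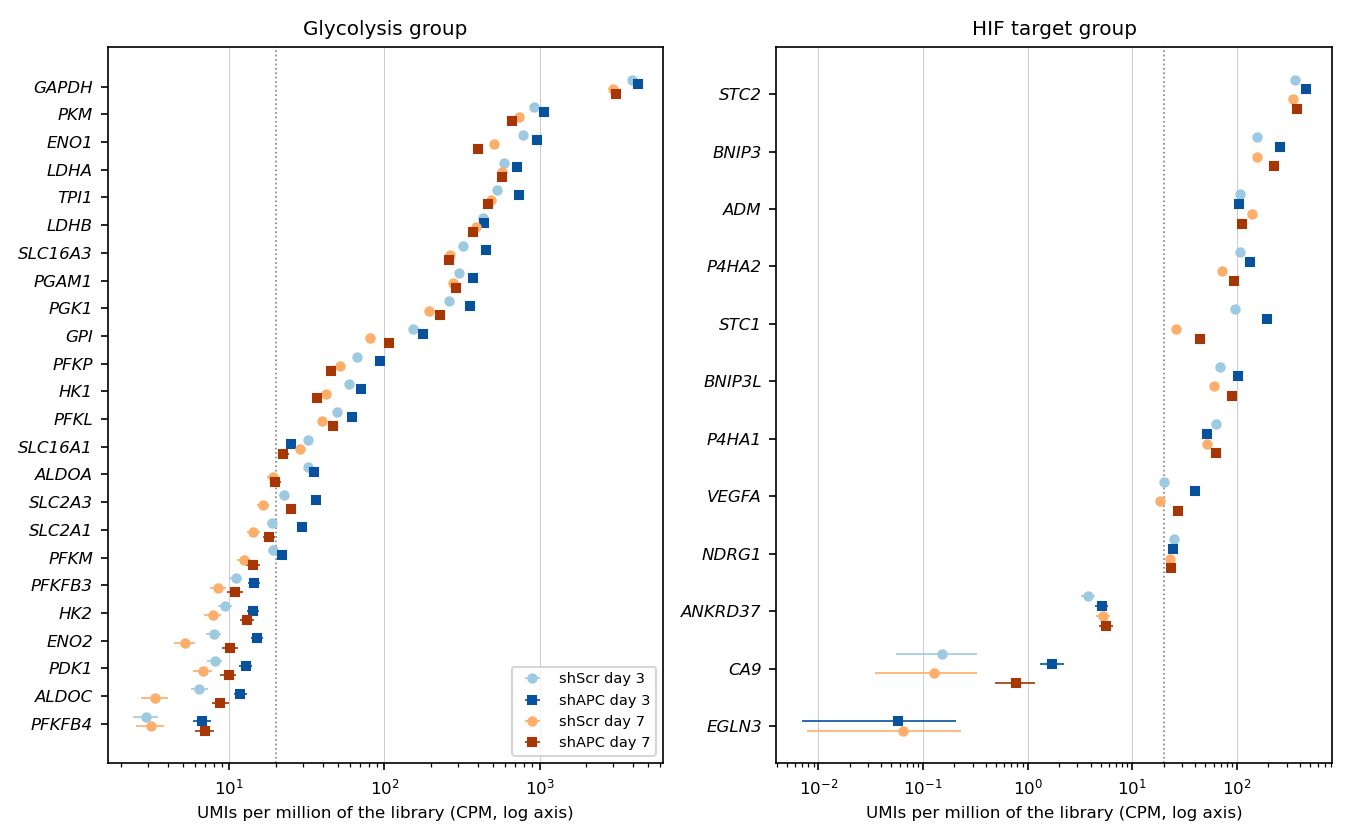
Level of each of the 36 genes in the 4 libraries, in CPM on log axes that differ between panels, with 95% Poisson intervals for counting error and a dotted line at 20 CPM; a library with no UMI has no point (EGLN3). Most dark blue squares (shAPC day 3) lie farthest right, as 29 of 36 genes were highest there, and STC1 has the widest spread of any gene over 20 CPM.

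The knockdown was compared at each day by the log2 ratio of CPM plus 1, shAPC over shScr. This ratio had a median of 0.28 over the 5175 genes of at least 20 CPM at day 3 and of -0.10 over 4573 genes at day 7. Ratios are therefore given after subtracting that median, unless stated otherwise, and a gene is called higher or lower from 1.5-fold. At day 3, 5.93% of all tested genes were called higher and 4.99% lower, and at day 7 4.07% and 5.2%. Higher genes were 54.3% of all calls at day 3 and 43.9% at day 7, against 91.9% and 26.9% with plain CPM and 35.8% and 24.6% with TMM factors.

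At both days most tested enzymes lay close to the median gene. Of the 9 tested HIF targets 6 lay above it and 3 below at day 3, and 8 above and 1 below at day 7. At day 3, 27 members were tested, and 11.1% of them were called, near the 10.9% of all tested genes. Of 14 enzymes none was called, with ratios from -0.25 to 0.21 and a median of -0.01. Of 18 members of the glycolysis group 1 was lower (SLC16A1), and of 9 HIF targets 2 were higher (STC1 and VEGFA). At day 7, 24 members were tested, and 20.8% of them were called, against 9.27% of all tested genes. Of 12 enzymes none was called, with ratios from -0.26 to 0.50 and a median of 0.07. In the glycolysis group 1 of 15 was higher (SLC2A3), and in the HIF group 4 of 9 were (STC1, VEGFA, BNIP3 and BNIP3L). VEGFA at both days and SLC2A3 at day 7 were under 20 CPM in shScr and passed the minimum only through the shAPC library, where they were high, so their calls add no support to these counts. The median of the HIF group exceeded that of the glycolysis group by 0.07 at day 3 and by 0.41 at day 7. The day 7 difference fell to 0.21 when genes down to 5 CPM were included, and with total, TMM or DESeq2 scaling and no centring 1 HIF target (STC1) was called in place of 4.

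**Figure D2:**
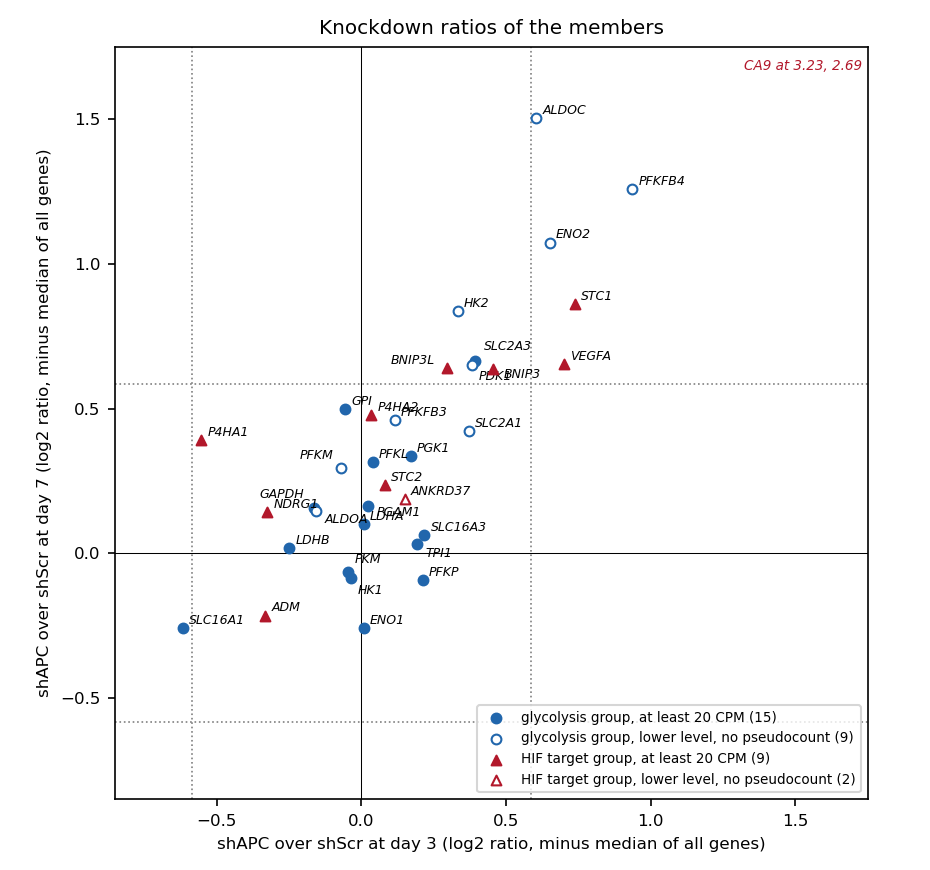
Log2 ratio of shAPC over shScr at day 3 (horizontal) and day 7 (vertical), each minus the median of all tested genes; filled points are members tested at both days, open points are lower members plotted without pseudocount, dotted lines mark 1.5-fold, and CA9 is written at its value because it lies outside the axes. Filled blue points (glycolysis) crowd around 0, while STC1 and VEGFA lie beyond both lines and ALDOC, ENO2 and PFKFB4 lie above them at both days.

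Glucose enters through facilitative transporters. SLC2A1 (GLUT1) was at 18.8, 29.4, 14.3 and 17.9 CPM. SLC2A3 (GLUT3), a transporter of high affinity, was at 22.4, 36.2, 16.5 and 25.0 CPM. In both genes the shAPC library stood above the shScr library of its day. The SLC2A1 ratio was 0.35 at day 3, and without pseudocount 0.42 (0.24 to 0.61) at day 7. The day 3 value was -0.13 with cells thinned to 2000 UMIs and 0.71 with the mean over cells, so its direction was not stable. The SLC2A3 ratio was 0.39 at day 3 and 0.67 at day 7, where it was called higher. Total, TMM and DESeq2 scaling gave 0.57, 0.56 and 0.55 at day 7, under 1.5-fold.

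Hexokinase traps glucose in the cell. HK1, the constitutive form, was at 59.4, 70.4, 41.7 and 36.7 CPM, with ratios of -0.04 and -0.08. HK2, the inducible form, was at 9.35, 14.3, 7.81 and 13.1 CPM, with ratios without pseudocount of 0.33 (0.14 to 0.53) and 0.84 (0.60 to 1.08) at days 3 and 7. Thus HK2 took 13.6% (12.3 to 14.9, exact binomial) of hexokinase UMIs in shScr day 3 and 16.8% (15.5 to 18.2) in shAPC day 3, and 15.8% (14.0 to 17.7) and 26.3% (24.0 to 28.6) at day 7. A share within a library is free of the library scaling, and here the shAPC share was the larger at both days.

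The next steps run from glucose phosphate isomerase to aldolase. GPI was at 153 and 178 CPM at day 3 and at 80.8 and 107 CPM at day 7, shScr first, with ratios of -0.06 and 0.50, the latter the highest of the enzymes tested at day 7. Phosphofructokinase commits sugar to glycolysis and has 3 genes here. PFKP, PFKL and PFKM were at 66.4, 49.6 and 19.0 CPM in shScr day 3, with day 3 ratios of 0.21, 0.04 and -0.08. PFKP gave 49.2%, 52.7%, 50% and 42.9% (41.1 to 44.7) of their UMIs, and PFKL 36.8%, 34.9%, 38.1% and 43.7% (41.9 to 45.5). The PFKP share was thus the larger with shAPC at day 3 and the smaller at day 7. ALDOA, the main aldolase of muscle and many other cells, was at 32.2, 35.0, 19.1 and 19.8 CPM. Its locus overlaps the same-strand gene AC093512.2 over 6251 bases, so reads may have gone uncounted and its level is uncertain. GPI and PFKP overlap same-strand genes as well, over 6099 and 3153 bases, so the same limit holds for them.

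The minor isoenzymes ALDOC and ENO2 had larger knockdown ratios than ALDOA and ENO1. ALDOC, the aldolase known from brain, was at 6.41, 11.8, 3.30 and 8.75 CPM. It overlaps SGK494 on the same strand over its whole length, 3834 bases, and is uncertain too. ENO2, the enolase known from neurons, was at 7.92, 15.1, 5.16 and 10.2 CPM. It overlaps LRRC23 on the same strand over 497 bases, so reads may have gone uncounted here as well. ALDOC and ENO2 were each lower in both shScr libraries than in either shAPC library. Without pseudocount the ratios of ALDOC at days 3 and 7 were 0.60 (0.38 to 0.84) and 1.503 (1.17 to 1.85), and those of ENO2 were 0.65 (0.45 to 0.86) and 1.07 (0.79 to 1.36). ENO1, the main enolase, was at 788, 959, 513 and 401 CPM, with ratios of 0.01 and -0.26. ENO2 gave 0.995%, 1.55%, 0.996% and 2.47% (2.20 to 2.77) of enolase UMIs. ALDOC gave 16.6%, 25.2%, 14.8% and 30.7% (27.5 to 34.0) of aldolase UMIs. In all 6 alternative ways of counting cells the HK2, ALDOC and ENO2 shares were larger with shAPC at both days.

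**Figure D3:**
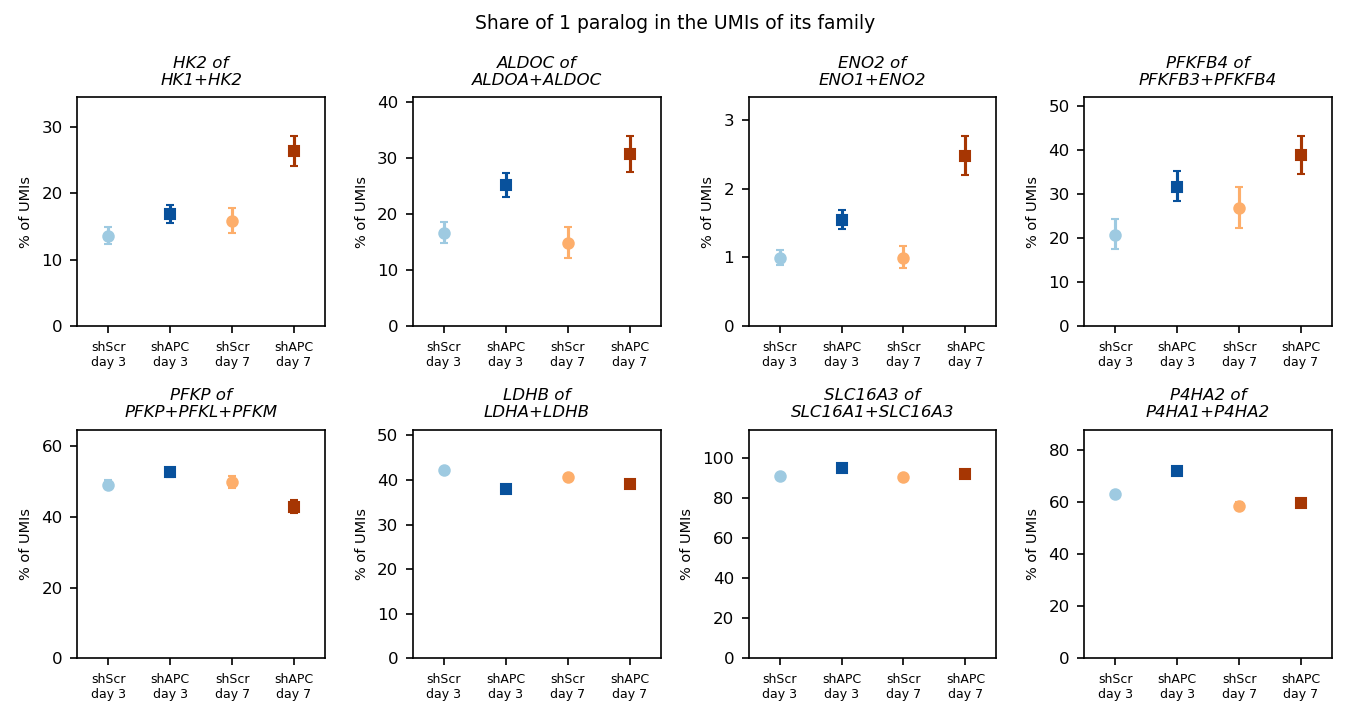
Share of 1 paralog in the summed UMIs of its gene family in each library, with exact binomial 95% intervals for counting error; every axis starts at 0 and its upper end differs between panels. In the upper row (HK2, ALDOC, ENO2, PFKFB4) each square (shAPC) lies above the circle (shScr) of their day; in the lower row the PFKP share with shAPC is the larger at day 3 and the smaller at day 7.

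The later steps of the pathway held the most abundant members, and their ratios lay between -0.26 and 0.34. TPI1, triose phosphate isomerase, was at 530 and 734 CPM at day 3 and at 484 and 462 CPM at day 7, with ratios of 0.19 and 0.03. GAPDH had ratios of -0.16 and 0.16, whereas plain CPM gave 0.11 and 0.06. PGK1, which makes the first ATP of the pathway, was at 261, 356, 193 and 228 CPM, with ratios of 0.17 and 0.34. PGAM1, phosphoglycerate mutase, was at 303, 373, 275 and 289 CPM and had ratios of 0.02 and 0.16. PKM, pyruvate kinase, was at 917, 1076, 738 and 661 CPM, with ratios of -0.04 and -0.06; the count does not separate its M1 and M2 splice forms. LDHA, which favours lactate formation, was at 588, 716, 573 and 575 CPM with ratios of 0.01 and 0.10. LDHB was at 430, 438, 391 and 370 CPM with ratios of -0.25 and 0.02. GAPDH, PGAM1, LDHA, LDHB, TPI1, PGK1 and ENO1 have processed pseudogenes, so reads that match several places may have gone uncounted and these levels are uncertain. PGK1 also overlaps ATP7A on the same strand over 139657 bases. The LDHB share of the pair was 42.3% and 37.9% at day 3 and 40.6% and 39.2% at day 7, shScr first.

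Lactate leaves the cell through SLC16A3 (MCT4) and moves both ways through SLC16A1 (MCT1). SLC16A3 was at 323, 455, 267 and 260 CPM, with ratios of 0.22 and 0.06. SLC16A1 was at 32.0, 25.0, 28.8 and 22.3 CPM, lower in both shAPC libraries than in both shScr libraries. Its ratio was -0.62 at day 3, the 1 lower call among members at either day, and -0.26 at day 7. At day 3 it was past 1.5-fold in 9 of 16 alternative settings, TMM and DESeq2 scaling among them, and with plain CPM its ratio was -0.34. The antisense gene SLC16A1-AS1 overlaps it over 1179 bases and had 726 to 1293 UMIs per library. SLC16A3 overlaps the same-strand gene AC132872.3 over 822 bases, so its reads may have gone uncounted.

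Of the regulators, PDK1 phosphorylates pyruvate dehydrogenase and so holds pyruvate out of mitochondria. It was at 8.07, 12.7, 6.72 and 9.88 CPM, with ratios without pseudocount of 0.38 (0.17 to 0.59) and 0.65 (0.39 to 0.91). PFKFB3 and PFKFB4 make and break fructose bisphosphate signals that set the pace of phosphofructokinase. PFKFB3 was at 11.0, 14.4, 8.45 and 10.9 CPM, with ratios of 0.11 (-0.07 to 0.30) and 0.46 (0.22 to 0.70). PFKFB4 was at 2.89, 6.70, 3.11 and 6.96 CPM, both shAPC libraries above both shScr libraries, with ratios of 0.94 (0.61 to 1.27) and 1.26 (0.90 to 1.62). PFKFB4 took 20.8% and 31.8% of the UMIs of the pair at day 3 and 26.9% and 39.0% at day 7, shScr first. It overlaps UCN2 on the same strand over 298 bases, so reads may have gone uncounted.

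These weaker genes can be set beside others of like level. On the same scale, genes that peaked between 5 and 20 CPM had a median ratio of 0.11 at day 3 and of 0.11 at day 7. The ratios and intervals of weaker members above are therefore relative to stronger genes, not to genes of like level. At day 3, 7 members peaked between 5 and 20 CPM, and 3 of them (ALDOC, ENO2 and PFKFB4) were 1.5-fold higher without pseudocount and none lower, against 11.2% higher and 4.68% lower among 4504 such genes. At day 7, 5 of 10 were higher (ALDOC, ENO2, HK2, PDK1 and PFKFB4) and none lower, against 10.1% and 5.07% of 4716 genes. PFKFB4 at both days and ALDOC at day 7 were under 5 CPM in shScr and entered only through the shAPC library, where they were high. They therefore add no support to these counts. The other genes of like level were admitted by the same rule. With TMM or DESeq2 scaling 1 of the 7 was higher at day 3 (PFKFB4) and 4 of the 10 at day 7.

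STC1, VEGFA, STC2 and ADM encode secreted HIF targets. STC1, a stanniocalcin that responds to hypoxia, was at 95.5, 194, 26.0 and 44.8 CPM. The shAPC library was the higher at each day, and both day 7 libraries lay below both day 3 libraries. Its ratios were 0.74 and 0.86, and it was past 1.5-fold in all 16 alternative settings at both days. VEGFA, the vessel growth factor, was at 20.0, 40.3, 18.4 and 27.6 CPM, with both shAPC libraries above both shScr libraries. Its ratios were 0.70 and 0.65, past 1.5-fold in 15 of 16 settings at day 3 and in 11 of 16 at day 7; cells thinned to 2000 UMIs gave 0.27 at day 3. STC2, the paralog of STC1, was far more abundant at 358, 459, 343 and 378 CPM and had ratios of 0.08 and 0.24. ADM, the vasodilator adrenomedullin, was at 108, 104, 138 and 111 CPM and had ratios of -0.33 and -0.22. The 4 secreted factors thus had ratios on both sides of 0 at each day.

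BNIP3 and BNIP3L are receptors on the outer mitochondrial membrane that mark mitochondria for autophagy. BNIP3 was at 154, 257, 155 and 225 CPM. BNIP3L was at 68.4, 102, 60.8 and 89.3 CPM. In both genes the shScr libraries differed little between days and both shAPC libraries lay above them. The ratios were 0.46 and 0.64 for BNIP3 and 0.30 and 0.64 for BNIP3L, so both were called at day 7 and neither at day 3. At day 7 total, TMM or DESeq2 scaling left both under 1.5-fold, at 0.52 to 0.55. BNIP3L made up 28.2% to 30.7% of the UMIs of the pair in the 4 libraries.

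P4HA1 and P4HA2 are catalytic subunits of collagen prolyl hydroxylase. P4HA1 was at 63.0, 51.7, 51.5 and 63.5 CPM, and its ratio changed sign from -0.55 at day 3 to 0.39 at day 7. The day 3 ratio, not called, was past 1.5-fold in 4 of 16 alternative settings and was -0.65 with TMM factors. P4HA2 was at 108, 134, 72.1 and 94.2 CPM, with ratios of 0.03 and 0.48; it overlaps PDLIM4 on the other strand over 15759 bases. P4HA2 gave 63.1% of the pair in shScr day 3 and 72.1% (71.0 to 73.2) in shAPC day 3, but 58.3% and 59.8% at day 7. Among the collagen genes of the marker list, COL1A1, COL1A2 and COL3A1 had ratios of -0.20, 0.08 and 0.27 at day 3 and were called higher at day 7, at 0.77, 1.28 and 1.40; their part in the prolyl hydroxylase values was not tested.

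CA9, a carbonic anhydrase of the cell surface that HIF1A induces strongly, was close to the detection limit. It had 6, 60, 4 and 22 UMIs, more in each shAPC library than in the shScr library of its day. Ratios without pseudocount were 3.23 (2.03 to 4.74) and 2.69 (1.13 to 4.69) at days 3 and 7. Its level peaked at 1.72 CPM, in shAPC day 3, and its ratios were not set beside genes of like level. Over all genes with the pseudocount and no minimum CPM, 2581 were 1.5-fold higher and 184 lower at day 3. At day 7 these counts were 769 and 746. NDRG1, a stress-responsive gene linked to differentiation, was at 25.2, 24.3, 22.8 and 23.6 CPM with ratios of -0.33 and 0.14. ANKRD37 was at 3.79, 5.09, 5.32 and 5.66 CPM, with ratios of 0.15 (-0.17 to 0.47) and 0.19 (-0.14 to 0.51).

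The time comparisons use the same libraries as the knockdown comparisons, so their values are not independent of those above. Day 7 over day 3 had a median of 0.05 over 4556 tested genes in shScr and of -0.34 over 5176 in shAPC. In shScr, 2.35% of all tested genes were called higher and 4.52% lower, and in shAPC 6.67% and 7.57%. In shScr all 13 tested enzymes lay below the median gene, with a median ratio of -0.40, and 3 were called lower: GPI at -0.96, ALDOA at -0.78 and ENO1 at -0.67. ALDOA passed the minimum only through the day 3 library. In shAPC 12 of 14 enzymes lay below, with a median of -0.32, and 3 were called lower: ENO1 at -0.92, PFKP at -0.69 and HK1 at -0.59. With plain CPM all 13 enzymes of shScr and all 14 of shAPC had ratios under 0. With the mean over cells the shScr ratios of PGK1, LDHA, PGAM1 and TPI1 were above 0, at 0.19, 0.13, 0.08 and 0.02. Those of the other tested enzymes stayed under 0. Of the enzymes LDHA, at -0.09 and 0.02, had ratios nearest to 0.

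The HIF group had time medians of -0.20 over 8 genes in shScr and 0.14 over 9 in shAPC. STC1 was lower at day 7 in both, at -1.89 and -1.75, 0.27 and 0.30 times its day 3 level relative to the median gene. P4HA2 was called lower in shScr at -0.62, but its mean over cells gave 0.51, and in shAPC it had -0.16, or 0.88 with the mean over cells. P4HA1 was called higher in shAPC at 0.63. BNIP3 gave -0.05 and 0.15. Of the 8 mesenchymal markers 1 was called lower in shScr and 5 higher in shAPC over the same days, and their part in these values was not tested. Of members between 5 and 20 CPM, 3 of 9 were lower in shScr (ALDOC, ENO2 and PFKM), and none higher. Of 4570 such genes 4.57% were lower and 3.33% higher. ALDOC was under 5 CPM in shScr day 7 and entered only through the day 3 library, where it was high, so it adds no support to this count. In shAPC none of 7 passed, and of 4535 genes 6.5% were higher and 7.98% lower. The kept cells of shScr day 7 were the shallowest. With only cells of at least 2000 genes the shScr ratios of GPI, ALDOA, ENO1 and STC1 were -0.96, -0.87, -0.71 and -1.90, all past 1.5-fold.

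**Figure D4:**
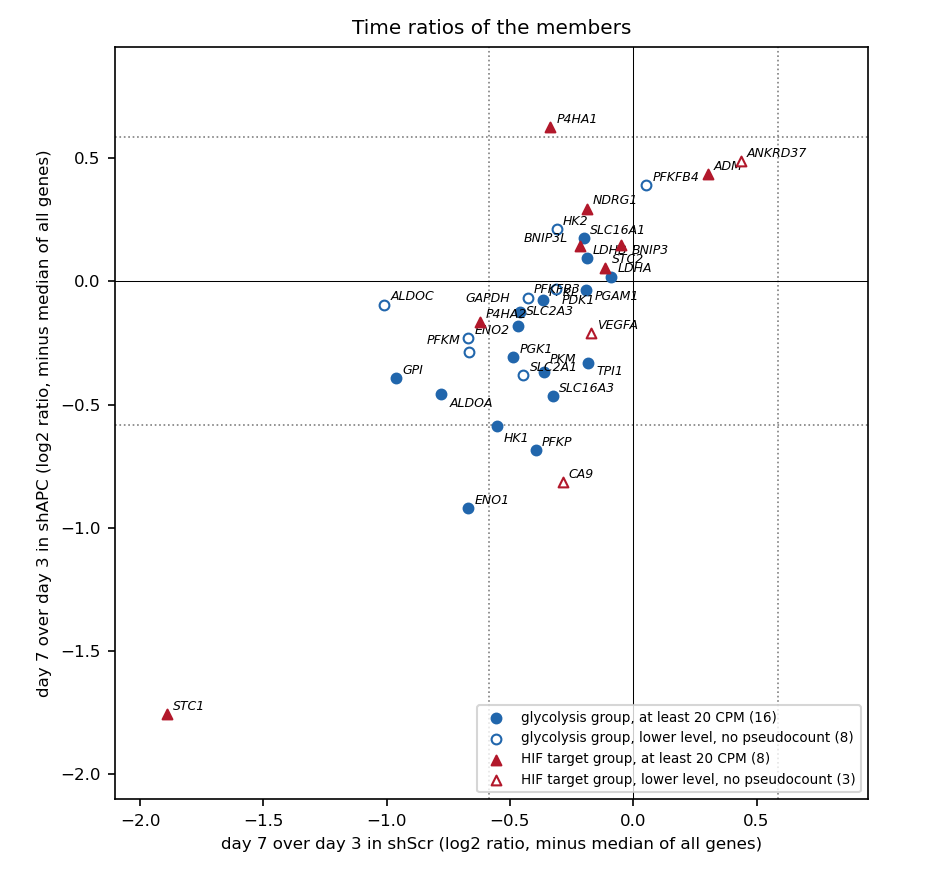
Log2 ratio of day 7 over day 3 in shScr (horizontal) and shAPC (vertical), each minus the median of all tested genes, with the symbols and 1.5-fold lines as for the knockdown ratios. Most glycolysis points lie left of 0, STC1 lies at -1.89 and -1.75 apart from all others, and P4HA1 is the 1 point above the upper line.

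Sums over a library cannot tell fewer expressing cells from less RNA per cell. Nor can the share of cells with a UMI of a weak gene, because that share follows the mean level. To compare cells at equal depth, they were thinned to 2000 UMIs each and shallower cells left out. This kept 899, 673, 1198 and 1087 cells and left out 217, 115, 1402 and 391. The median cell had 16, 19, 11 and 12 UMIs of the 17 enzymes, so the day 3 libraries stood above the day 7 libraries, and no cell lacked an enzyme UMI. The mean cell had 1.88, 2.64, 1.83 and 2.19 UMIs of the 12 HIF targets, and 21.2%, 14.3%, 20.9% and 16.7% of cells had none. Here the shAPC libraries stood above the shScr libraries and the days differed less. BNIP3 had a UMI in 23.0% (20.3 to 25.9), 39.5% (35.8 to 43.3), 28.0% (25.5 to 30.7) and 36.3% (33.5 to 39.3) of thinned cells. Unthinned shares also depend on the depth of the cells, and for BNIP3 they were 75.7%, 85.0%, 47.1% and 74.7%. STC1 had a UMI in 11.1%, 22.4%, 4.51% and 8.19% of thinned cells, and in 43.4%, 65.2%, 13.0% and 30.3% of unthinned cells. No cell type without these genes was present, so the share that free RNA alone would give is not known.

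**Figure D5:**
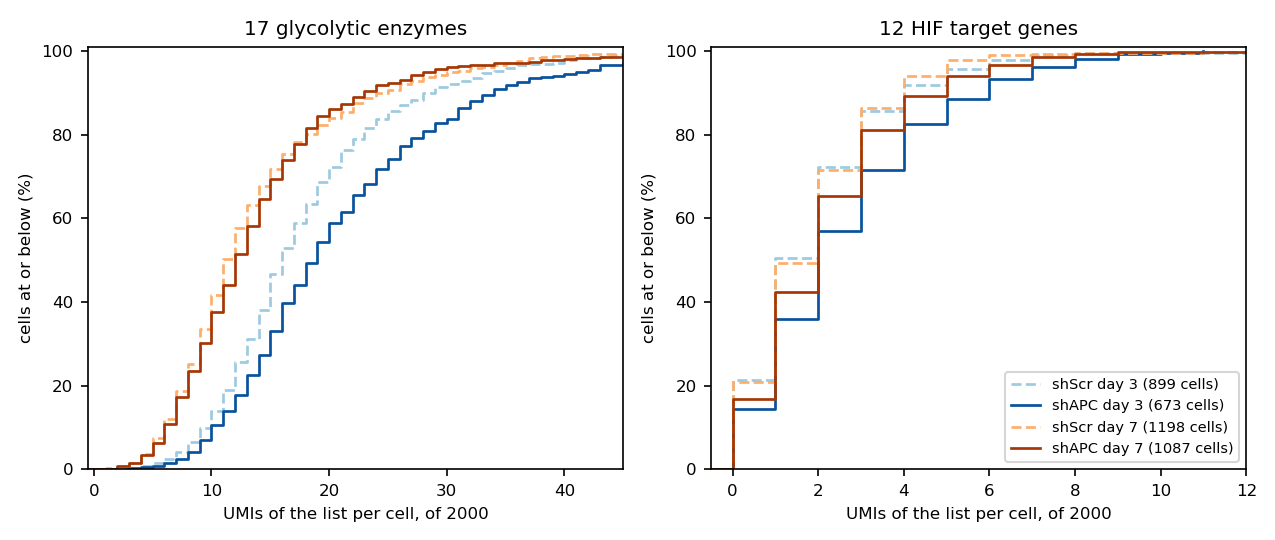
Cumulative share of cells by UMIs of the 17 enzymes (left) and the 12 HIF targets (right) after thinning each cell to 2000 UMIs; dashed lines are shScr and solid lines shAPC, blue day 3 and orange to brown day 7. On the left the day 3 curves lie right of the day 7 curves; on the right the solid curves lie right of the dashed curves of the same day.

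Cells of 1 library also differed among themselves. With cells thinned to 5000 UMIs, variation beyond counting noise was expressed as excess squared coefficient of variation, the variance minus the mean over the squared mean. GAPDH had 0.17, 0.27, 0.33 and 0.26, BNIP3 0.44, 0.33, 0.28 and 0.47, and STC1 3.44, 1.56, 8.60 and 2.63. STC1 UMIs were thus spread far less evenly over cells than those of GAPDH or BNIP3 in each library. With 2000 UMIs per cell STC1 had 4.36, 2.18, 2.58 and 3.61, so the order of the libraries was not kept. At 2000 UMIs the rank correlation of GAPDH with the other 16 enzymes across cells of a library was 0.31, 0.43, 0.40 and 0.37. That of the enzymes without GAPDH with the HIF group was 0.04, 0.09, 0.05 and 0.16, and at 5000 UMIs 0.12, 0.20, 0.13 and 0.28. It was thus larger at the greater depth in each library; the cells of a library share its processing and such counts are sparse.

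The wider pathway was described from further lists. Of all tested genes 5.93% were called higher and 4.99% lower at day 3, and 4.07% and 5.2% at day 7. Of 26 other HIF targets 17 were tested at day 3, of which 4 were higher and 2 lower, with a median of 0.32. HMOX1, heme oxygenase, was at 22.6, 77.9, 13.7 and 43.5 CPM, with ratios of 1.47 and 1.69. INSIG1 (1.13), BHLHE40 (0.73) and KDM4B (0.63) were the other higher genes at day 3, and LOX (-0.75) and MIF (-0.89) the lower ones. Of the 4 higher genes INSIG1, BHLHE40 and KDM4B were under 20 CPM in shScr and were tested only through shAPC, where they were high. At day 7, 5 of 16 were higher and none lower, with a median of 0.39: HMOX1, KDM4B (1.02), PLOD1 (0.99), MXI1 (0.67) and HILPDA (0.67). All of these but PLOD1 were under 20 CPM in shScr day 7 and likewise entered through shAPC, so these counts and medians are descriptions of the genes that passed. Of the HIF machinery none of 9 tested genes was called at day 3 and none of 8 at day 7. HIF1A itself was at 382, 427, 316 and 299 CPM, with ratios of -0.12 and 0.02, and EGLN1, the main prolyl hydroxylase, at 23.6, 19.6, 27.1 and 19.6 CPM, with ratios of -0.53 and -0.35.

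Other routes of glucose carbon were listed too, beside 10.9% of all tested genes called at day 3 and 9.27% at day 7. Of the pentose phosphate pathway 0 of 6 genes were called at either day. Of 20 tested genes of pyruvate entry and the TCA cycle 1 was lower at each day, MPC2, a subunit of the mitochondrial pyruvate carrier. MPC2 was at 187, 138, 223 and 120 CPM, with ratios of -0.72 and -0.79, both shAPC libraries below both shScr libraries. Of 31 nuclear genes of oxidative phosphorylation none was called at day 3, and COX7C (1.15) was higher at day 7. Of glucose-responsive genes 1 of 3 was higher and 1 lower at day 3 (MLXIP, -0.72), and 1 of 4 lower at day 7 (ARRDC4, -0.67). TXNIP, the higher gene, an inhibitor of glucose uptake that responds to glucose, was at 68.8, 203, 94.5 and 79.9 CPM, with ratios of 1.27 at day 3 and -0.14 at day 7. None of 3 further isozymes tested was called at either day.

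Some genes of a stress program were higher in the shAPC library of day 3 than in the shScr library of that day. Of 11 tested genes of the ATF4 list, which holds targets of the integrated stress response, 6 were higher at day 3: ATF3 (4.22), DDIT3 (3.07), SESN2 (1.81), TRIB3 (1.69), CHAC1 (1.22) and ASNS (1.00). At day 7, 1 of 7 was (SESN2, 0.68). Of all tested genes 5.93% were called higher at day 3 and 4.07% at day 7. All 6 ATF4 list genes higher at day 3 were under 20 CPM in shScr day 3, as SESN2 was in shScr day 7. They entered only through the shAPC library, where they were high, so the number tested at each day itself follows from the levels. ATF3 was at 1.03, 44.7, 15.4 and 3.37 CPM. VEGFA and STC2 are also known as ATF4 targets. STC2 was called at neither day. VEGFA was called at both, but it passed the minimum only through the shAPC library, where it was high. The part of this program in the member values was not tested. After thinning to 5000 UMIs 13 of 616 cells of shAPC day 3 held at least 3 ATF3 UMIs, too few for member ratios.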

How the data were processed

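Single-cell RNA was measured in 4 libraries of HCEC 1CT cells, grouped by their labels, 1 per group. The authors deposited raw UMI counts per gene and barcode, made with Cell Ranger (3.0.2 for shScr, 3.0.0 for shAPC per the file headers) on GRCh38; the annotation release is not given in the sources used here. A barcode was kept from 200 genes and 500 UMIs upward if mitochondrial genes gave less than 5% of its UMIs (5982 of 9205), and no doublet caller was run. UMIs were summed per library, scaled to CPM with exact Poisson intervals, and compared as log2 ratios with a pseudocount of 1 CPM. Genes of at least 20 CPM in 1 of 2 libraries were tested, and a call means 1.5-fold from their median ratio. Lower genes were compared without pseudocount, with exact conditional binomial intervals, after the same median was subtracted. With 1 library per group no count model was fitted. edgeR 4.0.16 (TMM) and DESeq2 1.42.0 gave alternative scaling factors. Python 3.11.15 and scipy 1.17.1 did the rest, and ratios were tested on simulated counts. Gene overlaps came from GENCODE 44 (GRCh38). The counting setting for strand is not stated, so reads of antisense genes cannot be told apart. The members and all lists were chosen with earlier results of these data known. All members are named. From other lists the rule took the 2 genes of highest mean CPM and the 2 of largest ratio at each day; remaining genes past the fold, and the comparison with genes of 5 to 20 CPM, were added after values were seen. A gene that the rule took is not reported here.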

Additional observations from a re-analysis of the deposited data

How the results depend on the processing

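Each tested member had 16 alternatives per comparison, and the group counts had the 2-fold limit in addition. Of the group counts and differences of medians, 147 values stayed within 1.5 times the reported count or near the reported difference, and the others are given here. Of the values of single members, gene lists and shares 1201 stayed and 785 moved. Moved means by more than the counting interval, or by more than 5% for means per cell. A further 48 lost the fold, 45 gained it and 1 value past the fold reversed. Members under the fold changed sign more often: of 1632 values of single members 140 had the other sign, over 47 of 102 pairs of member and comparison. LDHA between days in shAPC, at 0.02, kept its sign in 1 of 16 alternatives, and PGK1 at day 7 (0.34) had -0.08 with the mean over cells. For each that moved, the cause was not tested, except that fewer or more genes enter with another CPM minimum. At day 3 the count of glycolysis members past the fold (1) was 2 with total UMIs, 2 with the mean over cells and 2 with a minimum of 5 CPM. It was 0 with totals free of mitochondrial and ribosomal genes, without the 5% deepest cells, with a minimum of 100 CPM, a pseudocount of 5 or 2-fold, and 6 with no minimum. The HIF target count (2) was 4 with no minimum and 0 at 2-fold. The difference of medians (0.07) was 0.14 with the mean over cells, 0.26 with cells thinned to 2000 UMIs, 0.0135 with a minimum of 5 CPM or none, and 0.18 with 100 CPM. At day 7 the glycolysis count (1) was 0 with total UMIs, TMM, DESeq2 size factors, 100 CPM, a pseudocount of 5 or 2-fold. It was 2 with all barcodes or a mitochondrial limit of 10%, 5 with 5 CPM and 4 with no minimum. The HIF count (4) was 1 with total UMIs, TMM, DESeq2 or 100 CPM, 2 with 5 CPM or no minimum, and 0 at 2-fold. The difference (0.41) was 0.60 with the mean over cells, 0.28 when thinned, 0.21 with 5 CPM or no minimum, and 0.15 with 100 CPM. Between days in shScr the glycolysis count (3) was 5 when thinned or with 5 CPM and 0 at 2-fold. The HIF count (2) was 1 with total UMIs, totals without mitochondrial and ribosomal genes, the mean over cells, all barcodes, thinning, 100 CPM, no minimum or 2-fold. The difference (0.18) was 0.0587 with the mean over cells and 0.28 with the 10% limit. P4HA2 reversed to 0.51 with the mean over cells. In shAPC the glycolysis count (3) was 11 with total UMIs or no minimum, 5 with totals without mitochondrial and ribosomal genes, 1 with 100 CPM and 0 at 2-fold. The HIF count (2) was 4 with the mean over cells, and 1 with total UMIs, totals without mitochondrial and ribosomal genes, without the deepest cells, with 100 CPM, a pseudocount of 5 or 2-fold. The difference (0.46) was 0.59 with the mean over cells and 0.33 with 5 CPM or no minimum. Of members of 5 to 20 CPM at day 3 (3 past the fold), 5 passed with total UMIs and 1 with TMM or DESeq2. Over all genes, calls went from 565 to 961 at day 3 and from 737 to 1295 in shAPC over time with total UMIs. With the mean over cells they went from 424 to 930 at day 7 and from 313 to 850 in shScr over time. Thinning gave 888, 766 and 592 calls at day 3, at day 7 and in shScr over time, and the day 3 count was 371 without the deepest cells. Leaving out shared barcodes, applying alternatives to the time comparisons and rescaling members of 5 to 20 CPM were chosen after seeing the data. No paired analysis was possible because each group has 1 library and the labels give no replicate numbers. Counting error limits CA9, EGLN3, PFKFB4 and ANKRD37 most, the spread between cultures is unknown, and the lower depth of shScr day 7 cells cannot be told apart from its group.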
